A study of Xenopus laevis with 46 samples.

Results

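The genes *txnip*, *arhgap25*, *sgk1* and *hal.2* were followed through 18 groups of *Xenopus laevis* animal pole explants. They were chosen by their measured rise in read counts with IBET over vehicle, so that every comparison of IBET with its vehicle is given for them as a description and without a test. The gene names were looked up in the count tables, which list 49281 genes and keep the copies of the long (.L) and short (.S) subgenomes apart. There were 8 rows with these names, an .L and an .S copy of each gene, of which *txnip.L*, *arhgap25.S*, *sgk1.L* and *hal.2.L* were the rows named beforehand. The choice had no stated threshold, and genes outside it rose more with IBET. In uninjected stage 13 explants *txnip.L* ranked 551 and *sgk1.L* 1990 of 21278 genes by log2 fold change.

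Thioredoxin-interacting protein, the product of *txnip*, is an alpha-arrestin that binds reduced thioredoxin and lowers glucose uptake, and in mammalian cells its gene is turned on by glucose through Mlx partners. *sgk1* encodes the serum- and glucocorticoid-regulated kinase, which is activated by PDK1 and mTORC2 and in mammals phosphorylates FOXO factors and regulators of the epithelial sodium channel. *arhgap25* encodes a GTPase-activating protein for Rac that is known in mammals from blood cells, and *hal.2* encodes a histidine ammonia-lyase, which opens the pathway from histidine to glutamate. IBET occupies the bromodomains by which BET proteins read acetylated histones, while trichostatin A (TSA) inhibits histone deacetylases and so raises acetylation.

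All explants came from wild-type embryos, and an explant left to itself passes from a pluripotent blastula state at stage 9 to epidermis. In the first set, IBET or TSA was given from the 2-cell stage and compared with its own DMSO vehicle at stages 9 and 13, with 2 libraries per group (16 libraries). The second set compared Wnt/Chrd explants, injected to turn them toward neural crest, with uninjected explants, in 3 libraries per group (30 libraries). Its stage 9 explants were untreated, and its stage 13 and 17 explants had received IBET or DMSO from stage 9 onward. The labels do not say that libraries of a group came from separate clutches, so p-values measure the spread between these libraries, which may be technical. Libraries are named here by the letter of their column (a, b or c), and libraries with the same letter resembled each other across groups.

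The libraries held 12902520 to 32022992 reads counted in genes. Levels are given in CPM, the reads of a gene scaled to the size of its library, where the scaling (edgeR's TMM) was set over all libraries together. Changes are given as log2 fold changes (log2FC) with their standard error (SE). The share of reads that fell in genes was 54.4 to 71.0% in libraries of stages 13 and 17 with IBET and 63.9 to 65.4% with TSA at stage 13, against 71.8 to 77.2% in the vehicle libraries of those stages. Its part in the results on IBET and TSA was not tested. Epidermal marker genes (12 rows) summed to 810 to 2454 CPM in uninjected explants with IBET at stage 13 and to 14980 to 29690 CPM with vehicle, although the labels call both epidermal. Neural crest markers (12 rows) summed to 74.2 to 154 CPM in Wnt/Chrd explants with IBET at stage 13 and to 838 to 1199 CPM with vehicle, under a shared label of neural crest-reprogrammed. In the other stage 13 explants this sum was higher with the drug. It was 39.5 to 81.9 CPM with IBET and 14.1 to 28.4 CPM with vehicle in uninjected explants. With IBET from the 2-cell stage it was 127 to 182 CPM, against 28.5 to 44.1 CPM with vehicle. With TSA it was 114 to 126 CPM, against 16.9 to 17.1 CPM. The epidermal sum was also lower with TSA at stage 13, at 1224 to 1467 CPM against 17780 to 19010 CPM with vehicle. Markers of neural progenitors (9 rows) were higher, at 1126 to 1342 CPM with IBET and 35.4 to 65.8 CPM with vehicle in uninjected stage 13 explants, and at 294 to 306 CPM with TSA and 57.8 to 58.6 CPM with vehicle. Pluripotent blastula markers (10 rows) summed to 2546 to 4078 CPM with IBET and 506 to 1108 CPM with vehicle in those uninjected explants. At stage 9, with IBET from the 2-cell stage, the neural progenitor and blastula sums were lower than with vehicle. The neural sum was 44.08 to 45.35 CPM, against 167.6 to 181.8 CPM with vehicle. The blastula sum was 2745 to 2902 CPM, against 3723 to 3766 CPM with vehicle. Mesoderm markers (9 rows) summed to 45.3 to 58.2 CPM with TSA at stage 13 and 2.51 to 3.27 CPM with vehicle. With IBET from the 2-cell stage they summed to 25.89 to 28.85 CPM at stage 13, against 88.97 to 101.2 CPM with vehicle. The vehicle libraries of the IBET and TSA experiments thus differed in these markers. The part of these marker sets in the levels of the members was not tested. In bulk RNA, fewer cells of a type cannot be told apart from less RNA in each cell.

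*txnip* was higher with IBET in every library of every comparison. In uninjected stage 13 explants *txnip.L* had 615, 710 and 807 CPM with IBET, against 55.4, 60.4 and 46.5 CPM with vehicle. Wnt/Chrd explants of that stage had 461, 583 and 568 CPM with IBET, against 37.7, 54.7 and 33.4 CPM with vehicle. Every IBET library thus stood above every vehicle library, by 3.71 and 3.70 on the log2 scale. At stage 17 *txnip.L* had 411, 345 and 422 CPM with IBET and 46.2, 48.0 and 37.4 CPM with vehicle in uninjected explants. Wnt/Chrd explants had 306, 282 and 293 CPM with IBET and 68.8, 70.8 and 29.6 CPM with vehicle. The IBET libraries were again apart from the vehicle libraries, with log2 fold changes of 3.04 and 2.33.

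In explants kept in IBET from the 2-cell stage, *txnip.L* stood at 28.9 and 41.7 CPM at stage 9, against 7.90 and 10.5 CPM with vehicle. At stage 13 it stood at 510 and 602 CPM with IBET, against 58.2 and 37.1 CPM with vehicle. The difference was thus present at the blastula stage already and was larger on the log2 scale at stage 13, at 1.86 and 3.55. *txnip.S* followed the .L copy, with log2 fold changes of 2.25 at stage 9 and 3.67 at stage 13 in this set. In the second set they were 4.50 and 3.95 at stage 13 and 2.31 and 2.39 at stage 17, in uninjected and in Wnt/Chrd explants. Over the 16 pairs of libraries with the same letter, the ratio of IBET to vehicle was above 1 in 16, from 3.66 to 17.4 for *txnip.L* and from 3.18 to 35.3 for *txnip.S*. That count describes the choice of the gene, and the share over all genes is not given. It includes the 2-cell set, where letters were not taken to pair libraries.

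**Figure D1:**
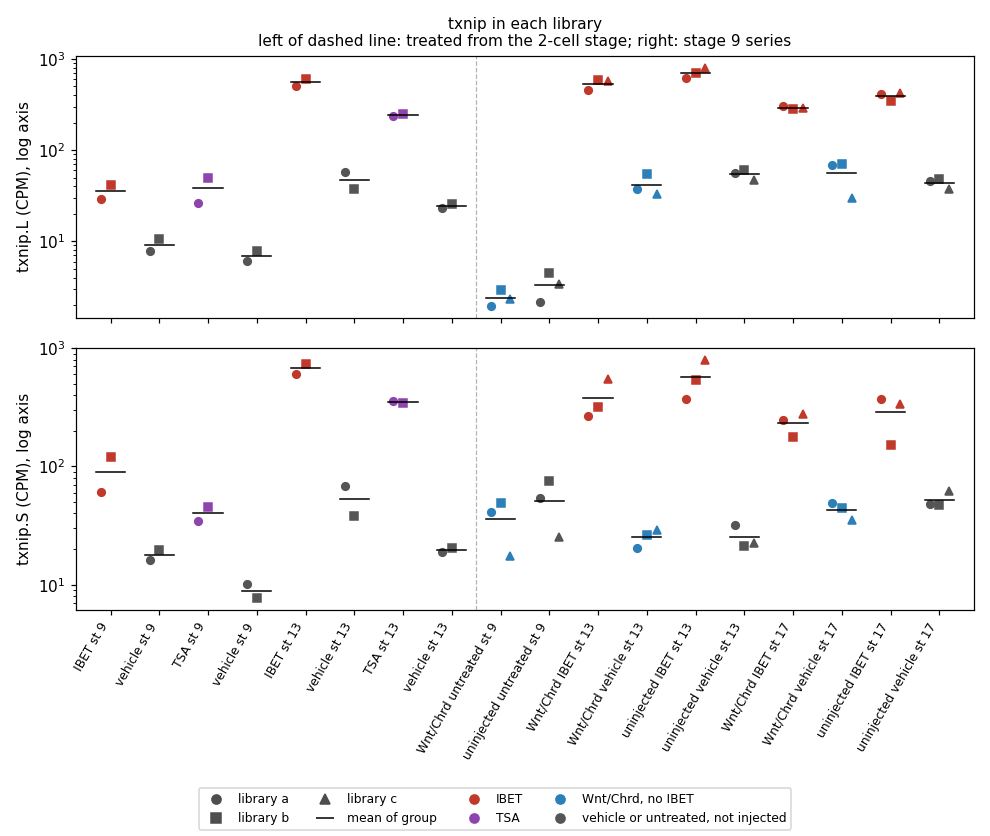
Levels of *txnip.L* (upper) and *txnip.S* (lower) in CPM on a log axis in each of the 46 libraries, by group, with a bar at the mean of the group. Every IBET group stands above its vehicle group for both copies, and *txnip.L* is lowest in the untreated stage 9 explants of the second set, at 1.96 to 4.48 CPM.

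TSA, whose comparison was not used to choose the genes, raised both copies of *txnip* at both stages. At stage 9 *txnip.L* had 26.6 and 49.3 CPM with TSA, against 6.06 and 7.89 CPM with vehicle (log2FC 2.37, SE 0.35, adjusted p = 0.0467). *txnip.S* had 34.9 and 45.4 CPM with TSA, against 10.1 and 7.71 CPM with vehicle (log2FC 2.10, SE 0.21, adjusted p = 0.0201). These p-values come from edgeR's quasi-likelihood test with Benjamini-Hochberg adjustment over all genes, as do those that follow. Of the 7 member rows fitted at stage 9, 3 were called and all 3 rose, beside 1.04% of 22067 genes that rose, 0.979% that fell and 2.02% in either direction. Few genes of the whole table passed at this stage.

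At stage 13 *txnip.L* had 236 and 246 CPM with TSA, against 23.2 and 25.5 CPM with vehicle (log2FC 3.32, SE 0.11, adjusted p = 3.93e-07). *txnip.S* had 356 and 346 CPM with TSA, against 19.0 and 20.4 CPM with vehicle (log2FC 4.17, SE 0.11, adjusted p = 1.85e-07). Of 6 member rows fitted, 5 rose, among them *arhgap25.S*, which passed the filter on low counts through its TSA libraries only, and 1 was not called, beside 36.9% of 24707 genes that rose and 72.7% that were called in either direction. A call alone says little at such a background. By size the rise of *txnip.S* lay at the 95.2th percentile of all log2 fold changes and that of *txnip.L* at the 91.8th, where the median gene stood at 0.12. With library totals alone as scaling, the median gene moved to 0.71 and *txnip.S* to 4.77.

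The effect of TSA on *txnip.S* was larger at stage 13 than at stage 9, by 1.98 on the log2 scale (SE 0.23, adjusted p = 1.62e-04 for the interaction). For *txnip.L* the difference between stages was 0.86 (SE 0.36, adjusted p = 0.0827) and did not pass in the fit without the letter as a block. Over all 7 member rows fitted, 2 were called upward and 2 downward, beside 20.4% of 26144 genes upward and 27.3% downward (47.7% in either direction). The upward rows include *arhgap25.S*, which passed the filter on low counts through its TSA libraries only. Its place in that count thus depended on its level with TSA. Side by side, the log2 fold changes of *txnip.L* were 1.86 with IBET and 2.37 with TSA at stage 9, and 3.55 with IBET and 3.32 with TSA at stage 13. Each drug had its own vehicle, and the drugs were not tested against each other.

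Among explants without a drug, *txnip* moved with stage. In the TSA vehicle, *txnip.L* stood at 24.4 ± 1.58 CPM at stage 13 and 6.98 ± 1.30 CPM at stage 9 (SD, n = 2 each), a rise of 1.82 on the log2 scale (SE 0.19, adjusted p = 7.04e-05). *txnip.S* rose by 1.16 (SE 0.19, adjusted p = 8.13e-04), but only by 0.42 with library totals as scaling (adjusted p = 0.076). In the second set *txnip.S* lay the other way, at 25.2 ± 5.77 CPM in uninjected vehicle explants of stage 13 and 51.5 ± 24.7 CPM in untreated uninjected explants of stage 9 (SD, n = 3 each), where only the stage 13 explants had received a vehicle, and this was not tested. In Wnt/Chrd explants the means were 25.3 ± 4.31 CPM at stage 13 and 36.0 ± 16.6 CPM at stage 9 (SD, n = 3 each), with ranges that overlapped in both kinds of explant. Of 5 member rows fitted in that comparison 4 rose, beside 39.0% of 23183 genes that rose and 78.0% that were called in either direction.

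Between stage 13 and stage 17 in uninjected vehicle explants, only the .S copy of *txnip* passed the test, and the difference between the copies was not tested. *txnip.S* had 48.1, 47.5 and 61.7 CPM at stage 17, against 31.8, 21.2 and 22.6 CPM at stage 13, and it rose (log2FC 1.05, SE 0.23, adjusted p = 0.0132). *txnip.L* had 46.2, 48.0 and 37.4 CPM at stage 17, against 55.4, 60.4 and 46.5 CPM at stage 13, with ranges that overlapped (adjusted p = 0.243). *txnip.S* was the only 1 of 5 member rows that rose, beside 19.7% of 21028 genes, and the call was lost without the c library of stage 13 vehicle (adjusted p = 0.057). In Wnt/Chrd vehicle explants its log2 fold change was 0.81 (SE 0.24, adjusted p = 0.0625). In that comparison 0 of 5 member rows passed, beside 6.46% of 20840 genes that rose and 7.22% that fell (13.7% in either direction). These vehicle libraries are also the controls of the IBET comparisons that chose the genes.

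By the test without the letter as a block, Wnt/Chrd injection did not move *txnip* past the threshold at any stage. At stage 9, before any drug, *txnip.S* had 41.4, 49.3 and 17.3 CPM in Wnt/Chrd explants and 54.2, 74.7 and 25.5 CPM in uninjected explants. Each letter was lower in Wnt/Chrd, while the letters themselves ranged widely, and the log2 fold change was -0.50 (SE 0.51, adjusted p = 1). With the letter as a block it passed (adjusted p = 6.8e-05). *txnip.L* had 1.96, 2.94 and 2.30 CPM in Wnt/Chrd explants, against 2.15, 4.48 and 3.38 CPM in uninjected explants (log2FC -0.46, SE 0.36, adjusted p = 1). In vehicle explants its log2 fold change between Wnt/Chrd and uninjected was -0.48 at stage 13 (adjusted p = 0.316) and 0.27 at stage 17 (adjusted p = 0.545). Those vehicle libraries are also controls of the IBET comparisons that chose the genes.

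The untreated stage 9 explants stood out by the copies of *txnip* they held. Of the reads on both copies, .L took 7.28% ± 3.87 in Wnt/Chrd and 7.06% ± 4.13 in uninjected explants (SD, n = 3 each). In the vehicle libraries of stage 9 from the 2-cell set it took 33.8% ± 1.48 (IBET vehicle) and 44.0% ± 9.33 (TSA vehicle; SD, n = 2 each), and in uninjected vehicle explants of stage 13 it took 68.2% ± 5.33 (SD, n = 3). The share counts reads, not reads per length, and the copies may share reads that align to either. The sets differ in whether a vehicle was given and in other ways, and these cannot be told apart. Epidermal markers summed to 3.55 to 26.6 CPM in uninjected and 16.1 to 89.9 CPM in Wnt/Chrd untreated explants of stage 9. In the stage 9 vehicle libraries they summed to 766 to 1034 CPM (IBET vehicle) and 503 to 800 CPM (TSA vehicle). In uninjected explants of stage 13 the share was 50.3 to 62.2% with IBET and 63.5 to 74.0% with vehicle, and in Wnt/Chrd explants it was 50.7 to 64.6% with IBET and 53.5 to 67.5% with vehicle. At stage 17 the uninjected ranges lay the other way, at 52.7 to 69.6% with IBET and 37.8 to 50.3% with vehicle, and those of Wnt/Chrd explants overlapped, at 51.2 to 61.3% with IBET and 45.7 to 61.5% with vehicle. In the 2-cell set the share was 25.9 to 32.1% with IBET and 32.8 to 34.9% with vehicle at stage 9, and 44.8 to 45.6% with IBET and 45.9 to 49.4% with vehicle at stage 13. The share with IBET thus stood below that with vehicle in 3 comparisons, above it in 1 and overlapped it in 2. With TSA at stage 13 the share was 40.7% ± 1.27, against 55.3% ± 0.424 with vehicle (SD, n = 2 each).

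**Figure D2:**
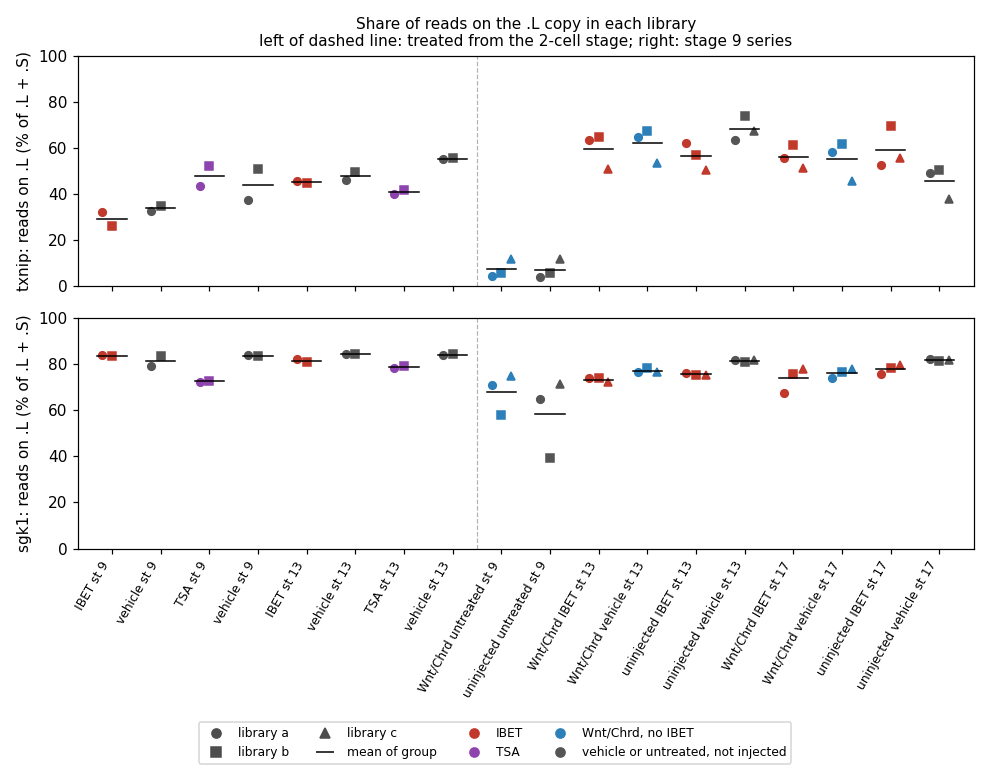
Share of reads on the .L copy, as a percent of reads on .L and .S, for *txnip* (upper) and *sgk1* (lower) in each library, with a bar at the mean of the group. For *txnip* the 6 untreated stage 9 libraries lie between 3.81 and 11.7%, below all other libraries. For *sgk1* the share is lower with TSA than with vehicle at stage 9, at 72.6 against 83.7%. It is also lower with IBET than with vehicle in uninjected explants of stage 13, at 75.7 against 81.5%.

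Genes that work with *txnip* were taken from a list of thioredoxins, their reductases and peroxidases, other alpha-arrestins, glucose transporters and Mlx partners (34 rows). With IBET from stage 9 in uninjected explants at stage 13, 8 of the 28 rows tested were higher and 4 lower, with a median log2 fold change of 0.33 against 0.05 over all genes, beside 22.9% of 21278 genes higher and 25.2% lower (48.1% in either direction). Of the 29 rows in Wnt/Chrd explants of that stage, 2 were higher and 0 lower, beside 6.71% and 8.60% of 20664 genes. Over all lists tested, that comparison called 13 rows, and 34 with the letter as a block. At stage 17 the counts were 7 of 29 higher and 4 lower in uninjected explants, beside 22.0% and 25.7% of 21722 genes (47.8% in either direction). Among Wnt/Chrd explants 9 of 29 were higher and 4 lower, beside 24.4% and 25.8% of 21513 genes (50.1% in either direction). With IBET given from 2 cells, 12 of 30 rows were higher and 4 lower at stage 13, beside 27.4% and 29.3% of 21842 genes (56.7% in either direction), and none of 30 passed at stage 9, beside 0.191% and 2.18% of 20978 genes.

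*arrdc4.L*, which encodes another alpha-arrestin, rose in the 5 IBET comparisons of stages 13 and 17. It averaged 20.3 ± 6.77 CPM with IBET and 2.94 ± 1.34 CPM with vehicle in uninjected stage 13 explants (SD, n = 3 each; log2FC 2.79, SE 0.45, adjusted p = 0.00156). In the 2-cell set it averaged 46.1 ± 0.348 CPM in IBET libraries of stage 13, against 4.70 ± 2.51 CPM in vehicle libraries (SD, n = 2 each; log2FC 3.299, adjusted p = 4.57e-04). It rose with TSA at stage 13 as well, by 3.19 (adjusted p = 6.81e-06). At stage 9 its log2FC was 0.12 with IBET and 0.03 with TSA (adjusted p = 1 for both).

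Other members of the list went both ways. *prdx2.L*, a peroxiredoxin that thioredoxin reduces, rose with IBET by 2.203 in uninjected (adjusted p = 0.00248) and 2.32 in Wnt/Chrd explants (adjusted p = 0.0219) at stage 13. *txnrd3.L*, a thioredoxin reductase, fell by 1.40 in uninjected explants at that stage (adjusted p = 0.00545). The mitochondrial thioredoxin *txn2.L* fell with IBET by 5.83 on the log2 scale in uninjected stage 17 explants (adjusted p = 2.83e-05), where vehicle libraries averaged 104 CPM. With TSA at stage 13, *arrdc3.L*, another alpha-arrestin, fell by 2.83 (adjusted p = 1.65e-06) and the glucose transporter gene *slc2a1.S* rose by 2.85 (adjusted p = 1.63e-06). Of the 31 rows of the list tested there, 14 were higher and 12 lower, beside 36.9% and 35.8% of all genes (72.7% in either direction). The genes quoted with TSA were picked after their values were seen, so their calls say little about the list.

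*sgk1* was higher with IBET than with vehicle in 16 of 16 pairs of libraries with the same letter, and unevenly between letters. The ratio ran from 1.25 to 10.9 for *sgk1.L* and from 1.06 to 13.7 for *sgk1.S*. In uninjected stage 13 explants *sgk1.L* had 493, 1825 and 1919 CPM with IBET, against 393, 274 and 373 CPM with vehicle. In Wnt/Chrd explants of that stage it had 529, 1893 and 1833 CPM with IBET, against 105, 178 and 192 CPM with vehicle. The a library was lowest in 4 of 4 IBET groups of the second set for both copies of *sgk1*. At stage 17 *sgk1.L* had 179, 674 and 625 CPM with IBET and 132, 188 and 282 CPM with vehicle in uninjected explants, so that the a library with IBET lay within the vehicle range. Wnt/Chrd explants had 144, 551 and 786 CPM with IBET, against 49.4, 50.7 and 105 CPM with vehicle.

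On the log2 scale the difference of *sgk1.L* with IBET was 2.04 in uninjected and 3.21 in Wnt/Chrd explants at stage 13, and 1.20 and 2.83 at stage 17. *sgk1.S* gave 2.56 and 3.54 at stage 13 and 1.49 and 2.87 at stage 17. The vehicle libraries of Wnt/Chrd explants were lower than those of uninjected explants while the IBET libraries were near each other, at means of 1418 CPM in Wnt/Chrd and 1412 CPM in uninjected explants of stage 13. From the 2-cell stage *sgk1.L* had 918 and 1397 CPM with IBET at stage 13, against 314 and 363 CPM with vehicle. At stage 9 it had 70.0 and 135 CPM with IBET, against 48.7 and 82.3 CPM with vehicle, and these ranges overlapped.

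**Figure D3:**
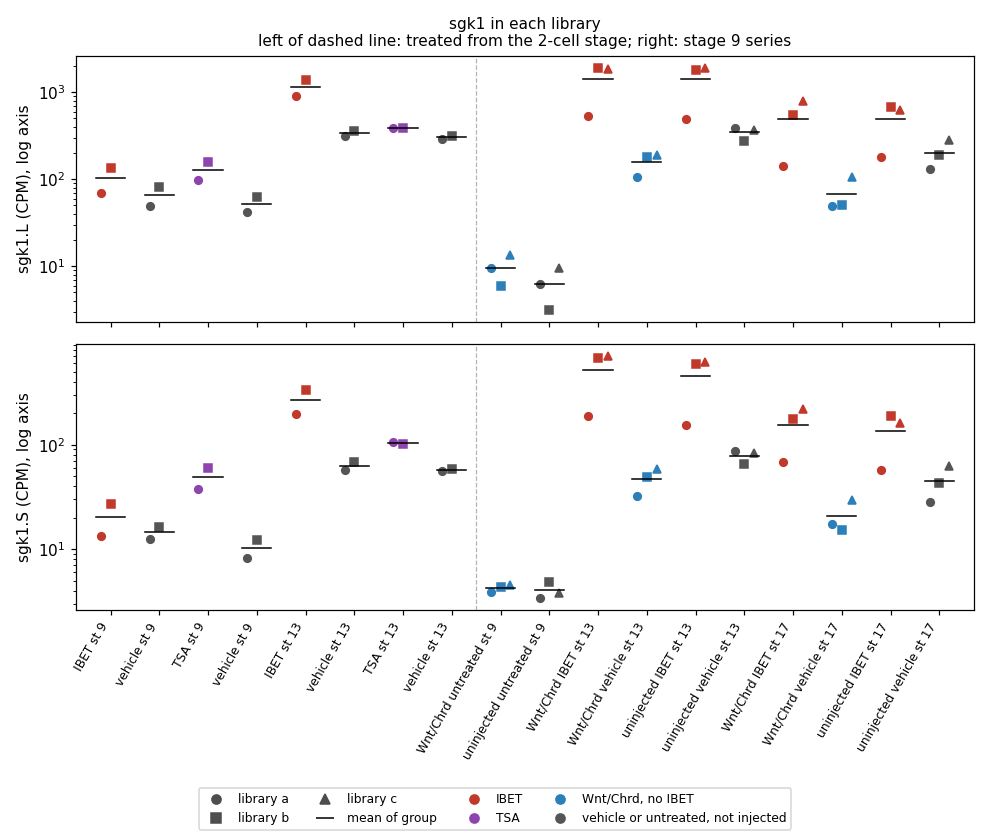
Levels of *sgk1.L* (upper) and *sgk1.S* (lower) in CPM on a log axis in each library, by group, with a bar at the mean of the group. The circles of library a lie below the b and c libraries in the 4 IBET groups of the second set, for example at 493 against 1825 and 1919 CPM for *sgk1.L* in uninjected stage 13 explants.

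With TSA, the copies of *sgk1* both rose at stage 13, and only .S passed at stage 9 by the test without the letter as a block. At stage 9 *sgk1.S* had 37.7 and 60.1 CPM with TSA, against 8.18 and 12.3 CPM with vehicle (log2FC 2.18, SE 0.31, adjusted p = 0.0432). *sgk1.L* had 98.9 and 160 CPM with TSA, against 42.6 and 62.2 CPM with vehicle (log2FC 1.23, SE 0.29, adjusted p = 0.162). The ranges of *sgk1.L* did not overlap, yet its test did not pass. At stage 13 *sgk1.S* had 106 and 102 CPM with TSA, against 56.2 and 58.6 CPM with vehicle (log2FC 0.87, SE 0.10, adjusted p = 1.41e-04). *sgk1.L* had 387 and 385 CPM with TSA, against 293 and 315 CPM with vehicle (log2FC 0.36, SE 0.10, adjusted p = 0.0115).

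The rise of *sgk1.L* at stage 13 stood near the middle of all genes, at the 56.0th percentile, and was lost without the a library of stage 13 vehicle (adjusted p = 0.052). The effect of TSA was smaller at stage 13 than at stage 9, by -0.96 for *sgk1.L* (SE 0.32, adjusted p = 0.0353) and by -1.40 for *sgk1.S* (SE 0.33, adjusted p = 0.00739). With library totals as scaling, these differences were -0.30 (adjusted p = 0.47) and -0.74 (adjusted p = 0.093) and no longer passed, while the median gene moved to 0.67. The call of *sgk1.L* was lost in 6 of 8 runs that left out a library, with adjusted p up to 0.14, namely all but those without TSA library a or vehicle library b of stage 9. The share of *sgk1* reads on .L was 72.6% ± 0.212 with TSA and 83.7% ± 0.283 with vehicle at stage 9 (SD, n = 2 each). At stage 13 the share was 78.7% ± 0.424 with TSA and 84.1% ± 0.283 with vehicle (SD, n = 2 each).

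Among the members, *sgk1* was called lower in Wnt/Chrd than in uninjected vehicle explants by the test without the letter as a block, and with the block *hal.2.L* was called lower as well at stage 17. At stage 13 *sgk1.L* averaged 159 ± 46.6 CPM in Wnt/Chrd and 347 ± 63.5 CPM in uninjected explants (SD, n = 3 each), and it fell by 1.25 on the log2 scale (SE 0.26, adjusted p = 0.0278). *sgk1.S* gave -0.87 (SE 0.26, adjusted p = 0.078), which passed with the letter as a block (adjusted p = 0.044). Thus 1 of 5 member rows was called, beside 7.58% of 20691 genes that fell and 4.40% that rose. The vehicle libraries of stages 13 and 17 are also the controls of the IBET comparisons that chose the genes. A low vehicle level enlarges the rise with IBET, so these tests of *sgk1* are not independent of that choice. The call of *sgk1.L* did not hold when the a or c library of uninjected vehicle or the b or c library of Wnt/Chrd vehicle was left out, with adjusted p up to 0.10, and it gave -1.33 (adjusted p = 0.20) without both c libraries. The epidermal markers summed to 20570, 3781 and 4064 CPM in the a, b and c libraries of Wnt/Chrd vehicle at stage 13, against 29690, 14980 and 18240 CPM in uninjected vehicle. At stage 17 they summed to 12090 to 23380 CPM in Wnt/Chrd and 28530 to 48640 CPM in uninjected vehicle, and their part in the difference of *sgk1* was not tested.

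At stage 17 *sgk1.L* had 49.4, 50.7 and 105 CPM in Wnt/Chrd explants, against 132, 188 and 282 CPM in uninjected explants, and it fell (log2FC -1.65, SE 0.39, adjusted p = 0.0126). *sgk1.S* fell by 1.20 (SE 0.36, adjusted p = 0.0322), with 17.5, 15.4 and 29.8 CPM in Wnt/Chrd and 28.3, 43.1 and 62.9 CPM in uninjected explants, where the highest Wnt/Chrd library overlapped the lowest uninjected one. With library totals as scaling *sgk1.S* gave -0.95 (adjusted p = 0.06), and its call was also lost without the b or c library of uninjected vehicle or the a or b library of Wnt/Chrd vehicle (adjusted p up to 0.10). The count of 2 of 5 member rows stands beside 22.3% of 21597 genes that fell, again in libraries that are controls of the IBET comparisons. Before treatment, at stage 9, *sgk1.L* had 9.47, 5.98 and 13.5 CPM in Wnt/Chrd explants, against 6.31, 3.16 and 9.53 CPM in uninjected explants. Every letter was higher in Wnt/Chrd, with a log2FC of 0.62 (SE 0.45, adjusted p = 1) that passed with the letter as a block (adjusted p = 0.005).

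That stage 9 comparison called 0 of 5 member rows, beside 0.0244% of 20482 genes (5 genes) by edgeR and 21 genes by DESeq2. At an unadjusted p under 0.05 there were 163 genes, a smaller share of those tested than 0.05. Libraries of the same letter correlated at r of 0.92 to 0.929 here, a pairing that the test without the block ignores. Its adjusted p-values in this comparison are thus no sign that the explants were alike. With the letter as a block 465 genes passed, among them *sgk1.L* and *txnip.S*.

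Both copies of *sgk1* rose with stage in the TSA vehicle. *sgk1.L* stood at 304 ± 15.96 CPM at stage 13 and 52.4 ± 13.8 CPM at stage 9 (SD, n = 2 each; log2FC 2.55, SE 0.18, adjusted p = 1.00e-05), and *sgk1.S* rose by 2.50 (SE 0.20, adjusted p = 1.74e-05). Between stages 17 and 13 neither copy passed by the test without the letter as a block. The vehicle libraries of that comparison are also controls of the IBET comparisons that chose the genes. For uninjected vehicle explants *sgk1.L* gave -0.80 (SE 0.29, adjusted p = 0.0629) and *sgk1.S* -0.82 (SE 0.30, adjusted p = 0.0626). In Wnt/Chrd vehicle explants the values were -1.18 (SE 0.38, adjusted p = 0.0742) and -1.12 (SE 0.34, adjusted p = 0.0666). With the letter as a block they passed, at adjusted p of 0.02 and 0.022 in uninjected and 0.023 and 0.026 in Wnt/Chrd explants. The untreated stage 9 explants of the second set had only 3.16 to 13.5 CPM of *sgk1.L*, below the 42.6 to 82.3 CPM of stage 9 vehicle libraries in the 2-cell set.

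The list around *sgk1* held the other SGK kinases, PDK1 and mTORC2 subunits, the glucocorticoid and mineralocorticoid receptors, their classical targets and the sodium channel (44 rows). With IBET at stage 13, 6 of 36 rows tested were higher and 6 lower in uninjected explants, with a median of -0.04. All genes there gave 22.9% higher and 25.2% lower. In Wnt/Chrd explants 3 of 35 were higher and 0 lower, beside 6.71% and 8.60% of all genes. At stage 17, 5 of 40 were higher and 10 lower in uninjected explants, beside 22.0% and 25.7%. In Wnt/Chrd explants 7 of 38 were higher and 7 lower, beside 24.4% and 25.8%. With IBET given from 2 cells, 9 of 36 were higher and 7 lower at stage 13, beside 27.4% and 29.3%. At stage 9, 0 of 37 were higher and 1 lower, beside 0.191% and 2.18%. The share of its rows called higher was below that of all genes in each of these comparisons apart from Wnt/Chrd explants of stage 13, where 8.57% stood beside 6.71%.

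Named genes of that list took separate courses. *klf9.L*, a Krüppel-like factor that glucocorticoids induce in mammals and frogs, averaged 78.4 ± 14.2 CPM with IBET and 8.06 ± 3.37 CPM with vehicle in uninjected stage 13 explants (SD, n = 3 each; log2FC 3.27, adjusted p = 3.20e-04). It rose in the other IBET comparisons of stages 13 and 17 too, by 2.37 to 4.20. *foxo3.L*, which encodes a FOXO factor that the kinase phosphorylates in mammals, rose by 2.57 in uninjected (adjusted p = 2.80e-04) and 2.27 in Wnt/Chrd explants (adjusted p = 0.0259) at stage 13. The related kinase gene *sgk3* fell in uninjected stage 17 explants. There *sgk3.L* averaged 3.40 ± 0.694 CPM with IBET and 116 ± 34.0 CPM with vehicle (SD, n = 3 each; log2FC -5.22, adjusted p = 3.01e-05).

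*scnn1g.S*, a subunit of the epithelial sodium channel, fell with IBET by 5.43 at stage 17 in uninjected explants (adjusted p = 1.99e-05) and with TSA at stage 13 by 3.79 (adjusted p = 1.17e-05). The clock gene *per1.L*, a glucocorticoid target in mammals, rose with TSA at stage 13 by 4.35 (adjusted p = 2.71e-07). *tsc22d3.L*, the glucocorticoid-induced leucine zipper, fell by 1.53 there (adjusted p = 8.85e-06). With TSA at stage 13, 20 of 41 rows of the list rose and 13 fell, beside 36.9% and 35.8% of all genes, with a median of 0.39 against 0.12.

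*arhgap25.S* was nearly unread in vehicle libraries and well covered in IBET libraries of stages 13 and 17. In uninjected stage 13 explants it had 24.5, 87.7 and 95.2 CPM with IBET (345, 1429 and 1862 reads), against 0.102, 0.271 and 0.190 CPM with vehicle (2, 5 and 3 reads). Wnt/Chrd explants had 9.63, 65.8 and 58.6 CPM with IBET, against 0.360, 0.121 and 0.463 CPM with vehicle. From the 2-cell stage it had 59.7 and 54.4 CPM with IBET at stage 13, against 0.413 and 0.204 CPM with vehicle. With so few reads in vehicle libraries, the fitted log2 fold changes of 8.48, 7.15 and 7.51 depend on the handling of low counts. By that measure it ranked 11 of 21278, 18 of 20664 and 16 of 21842 genes, which describes the choice of the gene.

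At stage 17 *arhgap25.S* was lower with IBET than at stage 13. It had 2.13, 17.7 and 13.4 CPM with IBET and 0.651, 0.209 and 0.444 CPM with vehicle in uninjected explants, and 3.60, 15.5 and 13.6 CPM with IBET and 0.317, 0.226 and 0.135 CPM with vehicle in Wnt/Chrd explants. The a library was lowest in 4 of 4 IBET groups of this set, as for *sgk1*, whereas for *txnip.L* it was lowest in 2 of 4. At stage 9 from the 2-cell stage the level was 0.731 and 1.81 CPM with IBET (17 and 43 reads) and 0.227 and 0.0826 CPM with vehicle (5 and 2 reads). The order of the groups put the 5 IBET groups of stages 13 and 17 first, and their ranges overlapped their neighbours in that order.

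With TSA at stage 13, *arhgap25.S* had 10.6 and 7.34 CPM (305 and 120 reads), against 0.283 and 0.322 CPM with vehicle (7 reads in each). The row passed the filter through its TSA libraries only, so that its place among the genes tested depended on the difference itself. Its log2 fold change was 4.89 (SE 0.35, adjusted p = 1.05e-05), and 4.84 when no filter was used, and it depends on how low counts are handled. At stage 9 it had 0.412 and 0.667 CPM with TSA (12 and 19 reads) and 0.124 and 0.0734 CPM with vehicle (3 and 2 reads), with a log2 fold change of 2.33 (SE 0.67, adjusted p = 0.263). The difference between the stages was 2.46 (SE 0.78, adjusted p = 0.029), and it rests on 14 reads in 2 vehicle libraries of stage 13 and 5 in 2 of stage 9. That call did not hold when single libraries were left out, with adjusted p up to 0.21 in 5 of 8 runs, namely those without vehicle library a or b or TSA library a of stage 9, or without vehicle or TSA library a of stage 13. The gene was below the filter in every fit among vehicle or untreated explants, and 4 libraries of untreated stage 9 explants held no read of it.

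**Figure D4:**
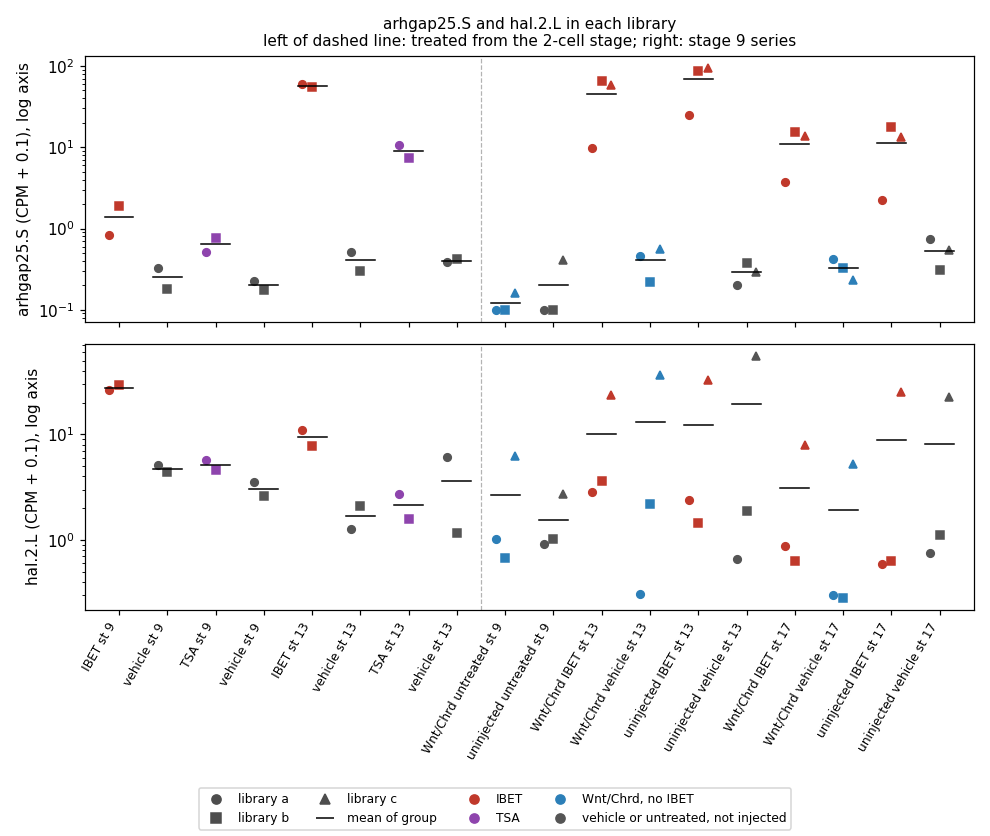
Levels of *arhgap25.S* (upper) and *hal.2.L* (lower), as CPM + 0.1 on a log axis, in each library by group, with a bar at the mean. *arhgap25.S* is above 2 CPM only with IBET at stages 13 and 17 and with TSA at stage 13, and the triangles of library c lie above the a and b libraries for *hal.2.L* in every group of the second set.

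The .L copy of *arhgap25* did not share this pattern. *arhgap25.L* had 9.24 and 6.17 CPM with IBET and 8.44 and 4.91 CPM with vehicle at stage 9 in the 2-cell set, and under 1 CPM in all other libraries. In these stage 9 libraries of the IBET experiment the .L copy held most *arhgap25* reads, 85.1% ± 10.8 with IBET and 97.8% ± 0.636 with vehicle (SD, n = 2 each). At stage 13 it held 0.786% ± 0.346 with IBET (SD, n = 2). The TSA experiment at stage 9 had 22 and 0 reads of *arhgap25.L* with TSA and 22 and 0 with vehicle, and the untreated stage 9 explants had none in 6 libraries. At stage 9 the experiments thus differed from each other in *arhgap25.L* while the drug and vehicle ranges within each overlapped.

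Since mammalian *ARHGAP25* is known from blood cells, markers of blood and endothelium (35 rows) were counted beside it. Most rows fell below the filter on low counts, and a row with few reads in vehicle libraries could pass it only through the libraries with a drug, so the counts are no measure of the whole list. With IBET from the 2-cell stage at stage 13, 9 of 35 rows were tested, of which 5 were higher and 1 lower, beside 27.4% and 29.3% of all genes. With TSA at stage 13, 11 of 35 were tested, of which 8 were higher and 1 lower, beside 36.9% and 35.8% of all genes. Their summed level was 24.4 to 26.0 CPM with IBET and 14.7 to 23.4 CPM with vehicle, and 62.2 to 63.3 CPM with TSA and 13.7 to 15.2 CPM with vehicle. In the second set at stage 13, 0 of 3 rows tested passed in uninjected explants, beside 48.1% of all genes in either direction. In Wnt/Chrd explants of that stage 0 of 4 passed, beside 15.3% of all genes. With so few of the 35 rows tested, these counts say little. There the markers summed to 9.45 to 33.6 CPM with IBET and 9.53 to 22.0 CPM with vehicle in uninjected explants, and to 11.6 to 39.0 CPM with IBET and 7.15 to 40.6 CPM with vehicle in Wnt/Chrd explants. The blood factors *gata1.L* and *gata1.S* were at or below 0.233 CPM in the stage 13 IBET and TSA libraries of the 2-cell set, and at or below 0.340 CPM in their vehicle libraries. *etv2.S*, an endothelial factor, averaged 25.7 ± 0.975 CPM with TSA at stage 13 (SD, n = 2) and had no read with vehicle. The part of blood or endothelial cells in the level of *arhgap25.S* was not tested.

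*hal.2.L* was higher with IBET without overlap of the groups in the 2-cell set, and in no comparison of the second set. At stage 9 it had 26.3 and 29.1 CPM with IBET, against 4.99 and 4.29 CPM with vehicle. At stage 13 it had 11.01 and 7.64 CPM with IBET, against 1.17 and 1.97 CPM with vehicle. These were log2 fold changes of 2.497 and 2.57. By that measure the gene ranked 95 of 20978 at stage 9 and 1153 of 21842 at stage 13, which describes the choice of the gene. In the second set the IBET and vehicle ranges overlapped in every comparison, at log2 fold changes of -0.67 and -0.29 at stage 13 and -0.004 and 0.72 at stage 17 in uninjected and Wnt/Chrd explants. Without a single c library these values ran as high as 3.89 and as low as -4.06. Over the 16 pairs of libraries with the same letter, the ratio of IBET to vehicle was above 1 in 11, from 0.526 to 13.3. The share over all genes is not given for this count either.

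In the second set the level of *hal.2.L* went with the letter of the library. In uninjected vehicle explants of stage 13 it had 0.564, 1.79 and 55.6 CPM in libraries a, b and c (11, 33 and 878 reads). With IBET the same letters had 2.27, 1.35 and 32.8 CPM. Library c was highest in 10 of 10 groups of this set. Genes whose c library was at least 4 times both others numbered 13 in the 8 groups of stages 13 and 17, *hal.2.L* among them, and 8 in all 10 groups, where it was not included because of the stage 9 explants. What the letters stand for is not given, so a clutch, a day or a batch of libraries cannot be told apart.

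By the test without the letter as a block, TSA left *hal.2.L* below the threshold. At stage 9 it had 5.59 and 4.50 CPM with TSA, against 3.40 and 2.50 CPM with vehicle (log2FC 0.70, SE 0.26, adjusted p = 0.494). At stage 13 it had 2.599 and 1.47 CPM with TSA, against 5.95 and 1.06 CPM with vehicle (log2FC -0.74, SE 0.67, adjusted p = 0.348), a direction that rested on vehicle library a and was 0.97 without it. In Wnt/Chrd explants against uninjected ones, its log2 fold changes were 0.83 at stage 9, -0.72 at stage 13 and -2.26 at stage 17, with SE of 0.97, 1.93 and 1.63 (adjusted p = 1, 0.881 and 0.303). The stage 17 difference passed with the letter as a block (-2.21, adjusted p = 0.0014), and each letter was lower in Wnt/Chrd, at 0.198, 0.181 and 5.10 CPM against 0.651, 1.00 and 22.4 CPM. From stage 13 to 17 in Wnt/Chrd vehicle it gave -2.78 (adjusted p = 0.32), and -2.44 with the block (adjusted p = 0.042). For uninjected vehicle it gave -1.30 (SE 1.71, adjusted p = 0.568). The vehicle libraries of the second set are also controls of the IBET comparisons that chose the genes.

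The other copy, *hal.2.S*, had at most 5 reads in any library and none in 23 of 46. It entered no fit, and no fold change is given for it. In the RefSeq annotation of assembly v10.1, *hal.2.L* lies between *amdhd1.L*, whose product acts after urocanase in histidine breakdown, and its tandem copy *hal.1.L*. *hal.2.S* has neither as a neighbour there.

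*hal.1.L*, the adjacent histidine ammonia-lyase gene, was lower with IBET in the 2-cell set, where *hal.2.L* was higher. At stage 9 it had 142 and 208 CPM with IBET, against 360 and 467 CPM with vehicle (log2FC -1.32, SE 0.22, adjusted p = 0.061). At stage 13 it had 1076 and 609 CPM with IBET, against 1764 and 1755 CPM with vehicle, and it fell (log2FC -1.05, SE 0.25, adjusted p = 0.0107). With TSA at stage 13 it had 242 and 214 CPM, against 1456 and 1823 CPM with vehicle, a fall of 2.84 (SE 0.15, adjusted p = 2.26e-06). In uninjected stage 13 explants of the second set *hal.1.L* fell with IBET (log2FC -3.534, SE 1.03, adjusted p = 0.0216), with 72.8, 9.82 and 378 CPM with IBET and 1144, 1813 and 2314 CPM with vehicle. The summed epidermal markers were lower in the same groups, and their part in the fall of *hal.1.L* was not tested.

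The remaining genes of histidine and one-carbon breakdown (18 rows) were counted in the same way. With IBET at stage 13, 9 of 15 rows tested were higher and 3 lower in uninjected explants, beside 22.9% and 25.2% of all genes, with a median of 0.96 against 0.05 over all genes. In Wnt/Chrd explants of that stage 2 of 15 were higher and 1 lower, beside 6.71% and 8.60%, with a median of 0.95 against -0.01. At stage 17, 4 of 15 were higher and 1 lower in uninjected explants, beside 22.0% and 25.7%, and 8 of 15 were higher and 2 lower in Wnt/Chrd explants, beside 24.4% and 25.8%. In the 2-cell set, 7 of 16 were higher and 3 lower at stage 13, beside 27.4% and 29.3%, and 0 of 15 were higher and 1 lower at stage 9, beside 0.191% and 2.18%. With TSA at stage 13, 4 of 15 were higher and 3 lower, beside 36.9% and 35.8%. *uroc1.L*, which encodes urocanase and so takes the product of histidine ammonia-lyase, averaged 87.3 ± 49.7 CPM with IBET and 20.3 ± 11.05 CPM with vehicle in uninjected stage 17 explants (SD, n = 3 each; log2FC 2.02, adjusted p = 0.0212).

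*ftcd.L*, whose enzyme completes the pathway, rose by 2.17 in Wnt/Chrd explants of stage 17 (SE 0.25, adjusted p = 4.07e-04). *aldh1l1.L*, a folate dehydrogenase, fell in all 8 comparisons with a drug, for example to 16.8 ± 13.2 CPM with IBET, against 535 ± 157 CPM with vehicle in uninjected stage 13 explants (SD, n = 3 each; log2FC -5.002, adjusted p = 8.20e-04). *amdhd1.L*, the other neighbour of *hal.2.L*, rose with IBET at stage 17 by 2.29 in uninjected (adjusted p = 0.0173) and 2.21 in Wnt/Chrd explants (adjusted p = 0.0158). At stage 9 from the 2-cell stage, where the mean of *hal.2.L* was highest of all groups, *amdhd1.L* had a log2 fold change of 0.19 (adjusted p = 1).

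**Figure D5:**
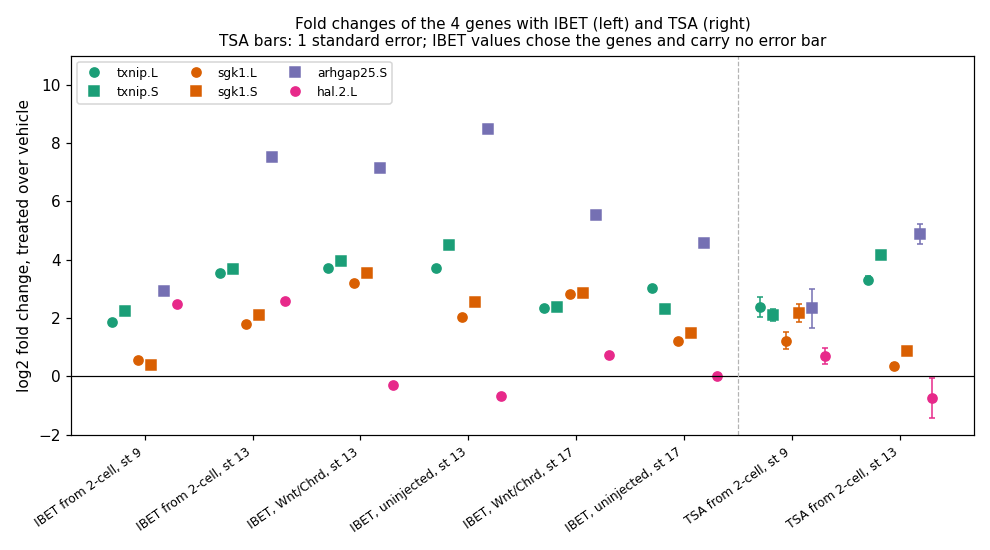
Log2 fold changes of the better covered copies of the 4 genes in the 6 IBET comparisons (left of the dashed line) and the 2 TSA comparisons (right, with 1 standard error). The IBET values chose the genes and are shown as a description, and *hal.2.L* lies between -0.67 and 0.72 in the second set while *arhgap25.S* lies between 2.93 and 8.48 with IBET.

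Set in order over the 18 groups, 8 of the 17 neighbouring pairs of groups overlapped for *txnip.L*. Its 5 highest groups were the IBET groups of stages 13 and 17, followed by TSA at stage 13. Group means ranged 296-fold for *txnip.L*, 75.6-fold for *txnip.S*, 224-fold for *sgk1.L* and 130-fold for *sgk1.S*, from the lowest to the highest. For *sgk1.L* and *sgk1.S* 14 of 17 neighbouring pairs overlapped, and for *hal.2.L* 17 of 17, so that the order of its groups is not resolved.

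The genes whose levels ran most like the members were found by Pearson correlation of log2 CPM over 46 libraries among 12592 annotated genes. This describes the libraries, which share treatments and stages. *txnip.L* ran closest to *ras-dva1.S*, a small GTPase gene (r = 0.963), *gapdh.S* of glycolysis (r = 0.955) and the histone H3.3 gene *h3-3b.S* (r = 0.949). *sgk1.L* ran closest to the ESCRT gene *chmp5.S* (r = 0.949), the stress gene *gadd45a.S* (r = 0.934) and *ras-dva1.S* (r = 0.920). For *sgk1.S* the genes were *chmp5.S* (r = 0.950), *vdac2.S* (r = 0.942) and *oaz1.S* (r = 0.933).

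*arhgap25.S* ran closest to *rhob.S* (r = 0.913), the chromatin remodelling gene *smarcc2.L* (r = 0.906) and *tent5a.L* (r = 0.906). *txnip.S* ran closest to *ralgds.L* (r = 0.881), *khdrbs3.L* (r = 0.880) and *fam214b.L* (r = 0.872). For *hal.2.L* the highest values were those of *entpd2.L* (r = 0.721), *tm7sf2.L* (r = 0.668) and *ss18l2.L* (r = 0.663). By Spearman rank correlation the 3 leading genes were not the same for any row. *entpd2.L* and *ralgds.L* stayed at rank 1 for *hal.2.L* and *txnip.S*, while *smarcc2.L* took rank 355 for *arhgap25.S*.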

How the data were processed

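RNA of animal pole explants was sequenced in 46 libraries from a directional kit. The deposited counts are whole reads per gene. Per the labels and methods, the authors used fastp 0.23.2 for trimming, STAR 2.6.0 for alignment to *X. laevis* genome 9.2 and HTSeq 1.99.2 for counting. The strand setting and annotation version are not given in the sources used here. Tables of the authors' own fold changes and p-values were not used. The test was edgeR 4.0.16 under R 4.3.3: filterByExpr (minimum count 10, total 15), TMM scaling and the quasi-likelihood F test on each comparison's libraries alone, with Benjamini-Hochberg adjustment over all genes at 0.05. An SE is the size of the log2FC divided by the root of F. Scripts were tested on simulated data. Log2 CPM used a prior count of 2.

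The members, lists and tests were chosen with earlier results of these data known. Genes named were all rows of the 4 symbols, the 3 genes most like each row, and of each list up to 4 genes with the smallest adjusted p in each IBET comparison. List genes quoted with TSA, *hal.1.L* outside that rule, *arrdc4.L* at stage 9, *amdhd1.L* in Wnt/Chrd explants and *gata1* were added after their values were seen. Alternatives were DESeq2 1.42.0, its size factors, library totals, no filter, a block by letter and each library left out. Count columns bear letters where the labels bear numbers, so a column was assigned to its group only. In the second set, deviations of libraries with the same letter correlated in 27 of 27 pairs (r from 0.220 to 0.929), each best with its own letter, so the letter was taken as pairing them. The main tests did not use this pairing. Values with the letter as a block are given beside them where a call of a member row changed. No libraries of a group were duplicates (lowest chi-square per degree of freedom 8.95). Of 8 member rows, 8 matched RefSeq symbols of v10.1, another build, so no coordinates are given. No sequences were used here. The result of the list of genes related to *arhgap25* is not reported here.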

Additional observations from a re-analysis of the deposited data

Results flagged for a closer look

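The effect of TSA differed between stages 13 and 9 by the interaction test of edgeR for 4 of the 7 member rows fitted. Of all 26144 genes tested, 47.7% were called in either direction, so the count of calls says little about the members. On the log2 scale, stage 13 minus stage 9, the difference was 2.46 for *arhgap25.S*, 1.98 for *txnip.S*, -0.96 for *sgk1.L* and -1.40 for *sgk1.S* (adjusted p = 0.029, 1.62e-04, 0.0353 and 0.00739). *arhgap25.S* passed the filter on low counts through its TSA libraries only and had 2 to 7 reads in each vehicle library. Each of these groups holds 2 libraries. With single libraries left out, the difference ran from 2.05 to 2.82 for *arhgap25.S* and from 1.75 to 2.15 for *txnip.S*. It ran from -1.29 to -0.60 for *sgk1.L* and from -1.75 to -1.05 for *sgk1.S*. The calls of *arhgap25.S* and *sgk1.L* did not hold in every such run. With library totals as scaling neither *sgk1* difference passed, as given with the results.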

How the results depend on the processing

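Over 50 tested log2 fold changes of member rows and 573 values under other settings, 491 kept direction and side of the threshold, 28 lost the call, 37 gained it and 17 changed sign, of which 11 were *hal.2.L* and 3 *arhgap25.L*; none of the 17 was a call in the main test, and the cause was not tested. By leaving out 1 library, *arhgap25.L* ran from -6.61 to 6.41 for TSA at stage 9 and from -8.15 to 4.63 for its stage difference, both on few reads. *hal.2.L* ran from -1.50 to 0.97 for TSA at stage 13, from -2.18 to 0.27 for the stage difference of TSA, from -0.92 to 1.54, -4.19 to 3.25 and -5.40 to 1.03 for Wnt/Chrd at stages 9, 13 and 17, and from -1.42 to 1.03 for stage 13 against 9, where it passed in opposite directions (adjusted p = 0.033 and 0.031). For stage 17 against 13 it ran from -4.55 to 2.72 in uninjected and -5.95 to 0.67 in Wnt/Chrd vehicle. *sgk1.S* ran from -0.01 to 0.27 for Wnt/Chrd at stage 9, and *txnip.S* from -0.26 to 0.08 for Wnt/Chrd at stage 13. Without both c libraries (chosen after seeing the data) *hal.2.L* gave -0.20 at stage 9, and without both a libraries *txnip.S* gave 0.19. For stage 13 against 9 *hal.2.L* gave -0.46 with library totals and -0.02 with the block.

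Member rows called were 3 for TSA at stage 9 and 6 with the replicate block, 4 for its stage difference (2 to 4 leaving out a library), 0 for Wnt/Chrd at stage 9 and 2 with the block, and 1 at stage 13, with 2 by DESeq2, 2 with the block, 0 without both c libraries and 0 to 1 leaving out a library. For Wnt/Chrd at stage 17 they were 2, with 1 by library totals, 1 without both a libraries and 1 to 2 leaving out a library. For stage 17 against 13 they were 1 in uninjected vehicle, with 3 by DESeq2, 3 with the block, 0 without both c libraries and 0 to 3 leaving out a library, and 0 in Wnt/Chrd vehicle, with 1 by library totals, 3 by DESeq2, 3 with the block and 0 to 3 leaving out a library. List rows called with IBET were 4 at stage 9, with 7 unfiltered, 9 by DESeq2 and 15 with the block; 53 in uninjected explants at stage 13, with 22 without both c libraries; 13 in Wnt/Chrd explants, with 25 unfiltered, 34 by DESeq2, 34 with the block, 37 without both a libraries, 2 without both c libraries and 5 to 26 leaving out a library; 46 in uninjected explants at stage 17, with 23 without both c libraries and 30 to 49 leaving out a library; and 55 in Wnt/Chrd explants, with 36 without both c libraries.

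Over all genes, calls for TSA at stage 9 were 446, with 919 by DESeq2 and 2981 with the block. Wnt/Chrd in vehicle at stage 13 gave 2479, with 4333 by DESeq2, 5212 with the block and 12 without both c libraries, and stage 17 against 13 in Wnt/Chrd vehicle gave 2850, with 6046, 6239 and 0. IBET at stage 9 gave 498, with 991 unfiltered, 970 by DESeq2 and 2526 with the block, and IBET in Wnt/Chrd explants at stage 13 gave 3163, with 5717 by DESeq2 and 6272 with the block. In the 2-cell set, libraries of the same letter also correlated across groups (r from 0.255 to 0.849). With 2 libraries per group a letter can only match or oppose, so letters were not taken as pairing there. Its block values stand only here, and the IBET ratios by letter include this set as a description. With the block *sgk1.L*, *hal.2.L* and *arhgap25.S* crossed the threshold for TSA at stage 9, and *txnip.L* and *hal.2.L* for its stage difference. With 2 libraries per group these fits leave little spread between libraries to measure, so no result is drawn from these calls. *arhgap25.S* entered the stage 9 fit through its TSA libraries only (12 and 19 reads, against 3 and 2 with vehicle). Beside these and the block values given with the results, the block changed no other call of a member row. Group means moved by over 1 SD in 43 of 144 cases with library totals and 6 with DESeq2 size factors. Few reads limit *arhgap25.L*, *hal.2.S* and *arhgap25.S* in vehicle.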

Other observations

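*hal.1.L* differed between letters with IBET. At stage 17 in uninjected explants it had 788, 31.2 and 665 CPM with IBET in libraries a, b and c, against 360, 598 and 662 CPM with vehicle. The b library was lowest in each IBET group of the second set, while library c was highest for *hal.2.L* in those groups.

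*hbg1.L*, a globin gene of the blood list, had 171 to 244 CPM in untreated Wnt/Chrd explants of stage 9. The whole list summed to 179 to 252 CPM there and to 7.26 to 9.43 CPM in uninjected explants. The Wnt/Chrd explants had been injected, and the source of these reads was not tested. No member row passed the test without the block in that comparison.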
